A study of Mus musculus with 8 samples.

Results

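Fc receptors bind the constant part of antibodies and pass the signal, or the antibody itself, into or across the cell. The 10 mouse genes described here are Fcer1g, Fcgr1, Fcgr3, Fcgr4, Fcgr2b, Fcer2a, Fcrla, Fcmr, Pigr and Fcgrt, chosen by name and found on the array through the RefSeq accession of their probes. Together 12 probes measured them, out of 37116 probes and 28992 genes or accessions kept, with a pair of probes each for Fcgr2b and Pigr. Lung RNA of 8 female BALB/c mice was hybridised, 1 array per mouse and 2 mice per group. NT mice ate standard feed for 70 days and had no ovalbumin (OVA). Ctrl-F mice ate the same standard feed, Cap-F mice a feed with control particles of carbonate apatite, and ODNcap-F mice a feed with such particles loaded with a CpG oligodeoxynucleotide, an agonist of the innate DNA sensor TLR9. The Ctrl-F, Cap-F and ODNcap-F mice were also sensitised to OVA by intraperitoneal injection and challenged with it by inhalation. The sample labels do not give the age of the mice. The model holds an allergen response raised with a single protein in 1 inbred strain, and whole lung was taken, so that every level below is a mean over all cells of the lung.

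Each array had 61.3% to 65.0% of its probes well above background, all 12 probes of these genes were above background on all 8 arrays, and no spot was saturated. Values are log2 intensities after quantile normalization over the arrays, and a change is a difference of group means on that log2 scale with its SE from the limma fit. Calls refer to a p under 0.05 after Benjamini-Hochberg adjustment. The array position limits some comparisons: NT and Ctrl-F lay in one row of the slide and Cap-F and ODNcap-F in the other, so Ctrl-F against NT and ODNcap-F against Cap-F lie within a row, and row and group cannot be told apart in the remaining comparisons. The labels give 2 separate mice per group, and with 2 against 2 an exact permutation test cannot give a p below 0.333.

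Antibody receptors differ in what they do with the antibody they hold. Activating receptors such as Fcgr1, Fcgr3 and Fcgr4 bind IgG and signal through the common gamma chain, the product of Fcer1g, which carries an activation motif and also serves the high-affinity IgE receptor of mast cells and basophils. Fcgr2b binds IgG through a similar outer part but carries an inhibitory motif, and on B cells it dampens signals of the antigen receptor. Fcer2a (CD23), Fcrla and Fcmr are best known from B cells, while Pigr and Fcgrt carry antibody through epithelial and endothelial cells. In allergic lung, IgE and IgG to the allergen meet these receptors on mast cells, macrophages, eosinophils and lymphocytes.

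Exposure to OVA was accompanied by higher levels of most of these receptors but not of the transporters measured by their brighter probes. In Ctrl-F against NT 7 of the 10 genes were called higher and 0 lower, 6 of them by over 2-fold. The same numbers were 6 and 0, 6 of them over 2-fold, in Cap-F against NT, and 7 and 0, with 6 over 2-fold, in ODNcap-F against NT. These 3 comparisons share the 2 NT mice. Calls were frequent in all of them: among all genes, 26.2% were called higher in Ctrl-F against NT, 24.1% in the Cap-F and 25.1% in the ODNcap-F comparison, and with a fold over 2 the shares were 10.5%, 9.74% and 9.86%. Lower calls were more frequent still, at 35.7%, 32.4% and 34.9% of all genes in the same order. The median change of the 10 genes was 1.28, 1.37 and 1.12 for Ctrl-F, Cap-F and ODNcap-F, beside a median of −0.12, −0.11 and −0.12 over all genes. None of the 10 genes was called between the diets of the OVA-exposed mice.

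**Figure D1:**
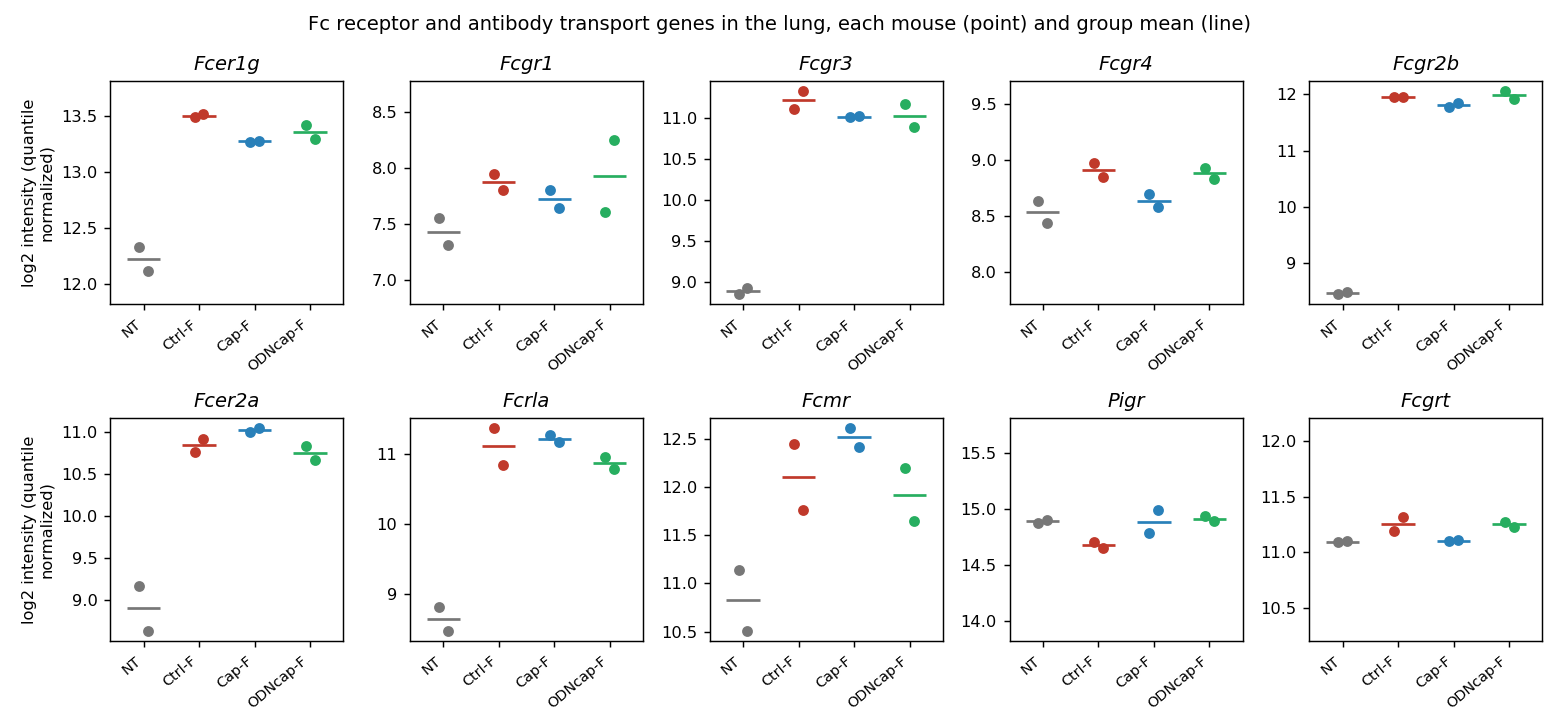
Log2 intensity (quantile normalized, y axis, a scale of its own for each gene) of the 10 genes in each of the 8 mice (points), by group, with the group mean as a line. The 2 NT mice lie below all 6 OVA-exposed mice for 8 genes and among them for Pigr, while the Fcgr4 values of NT and Cap-F overlap.

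Fcer1g, the shared signalling chain, rose in each OVA-exposed group. Its log2 intensity was 12.33 and 12.11 in NT mice, 13.49 and 13.52 in Ctrl-F mice, 13.27 and 13.28 in Cap-F mice, and 13.42 and 13.30 in ODNcap-F mice. All 6 OVA-exposed mice lay above both NT mice. The change against NT was 1.29 ± 0.09 (SE, n = 2 mice per group; adjusted p = 1.40e-04) in Ctrl-F, a 2.44-fold rise, with 1.06 and 1.14 in Cap-F and ODNcap-F.

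The ligand-binding chains that use Fcer1g did not move alike. Fcgr3, a low-affinity activating receptor for IgG complexes, was at 8.85 and 8.93 in NT mice, 11.11 and 11.32 in Ctrl-F mice, 11.01 and 11.02 in Cap-F mice, and 11.17 and 10.88 in ODNcap-F mice. It rose by 2.32 ± 0.12 (SE; adjusted p = 4.96e-05) in Ctrl-F, and by 2.12 and 2.13 in Cap-F and ODNcap-F. Fcgr4, an activating receptor with intermediate affinity for some IgG subclasses, was at 8.63 and 8.44 in NT mice, 8.97 and 8.85 in Ctrl-F mice, 8.69 and 8.57 in Cap-F mice, and 8.93 and 8.83 in ODNcap-F mice. The Ctrl-F and ODNcap-F mice were above NT and the Cap-F mice overlapped NT. Its change was 0.38 ± 0.10 (adjusted p = 0.0192) in Ctrl-F and 0.34 (adjusted p = 0.0271) in ODNcap-F, and 0.10 (adjusted p = 0.431) in Cap-F. Both Fcgr4 calls rested on single mice: without the second NT mouse the adjusted p was 0.0970 in Ctrl-F and 0.131 in ODNcap-F, without the first Ctrl-F mouse it was 0.0942, and without the first or the second ODNcap-F mouse it was 0.112 or 0.0509. The local-pooled-error test gave an adjusted p of 0.100 in ODNcap-F.

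Fcgr1, the high-affinity receptor for IgG, was at 7.55 and 7.31 in NT mice, 7.95 and 7.80 in Ctrl-F mice, 7.81 and 7.64 in Cap-F mice, and 7.60 and 8.25 in ODNcap-F mice. The OVA-exposed mice were above both NT mice by small margins and the ODNcap-F mice were the farthest apart. Its changes of 0.44 (adjusted p = 0.125), 0.29 (adjusted p = 0.292) and 0.50 (adjusted p = 0.0962) for Ctrl-F, Cap-F and ODNcap-F were not called. In ODNcap-F the estimate was 0.82 (adjusted p = 0.0100) without the first mouse and 0.17 (adjusted p = 0.374) without the second, and in Ctrl-F the adjusted p was 0.0277 once either ODNcap-F mouse was left out of the shared estimate of the spread. The normexp background correction and the local-pooled-error test also called Fcgr1 in Ctrl-F and ODNcap-F. The adjusted p was 0.0438 in Ctrl-F after normexp and 0.0287 in ODNcap-F by the latter test.

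Fcgr2b, the inhibitory receptor, had the widest change of the 10 genes by the brighter probe in each comparison with NT. Its values were 8.45 and 8.49 in NT mice, 11.96 and 11.95 in Ctrl-F mice, 11.77 and 11.84 in Cap-F mice, and 12.06 and 11.91 in ODNcap-F mice. The lowest OVA-exposed mouse thus lay far above the highest NT mouse, and mice of one group differed little. The rise was 3.48 ± 0.08 (SE; 11.2-fold, adjusted p = 4.92e-06) in Ctrl-F, with 3.34 in Cap-F and 3.51 in ODNcap-F, which placed it at percentile 98.1 of all genes in Ctrl-F. The second probe, annotated with another transcript of the gene, rose by 3.66, 3.41 and 3.62. The outer parts of Fcgr2b and Fcgr3 are alike in sequence, and whether their probes also bind each other's RNA was not tested.

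**Figure D2:**
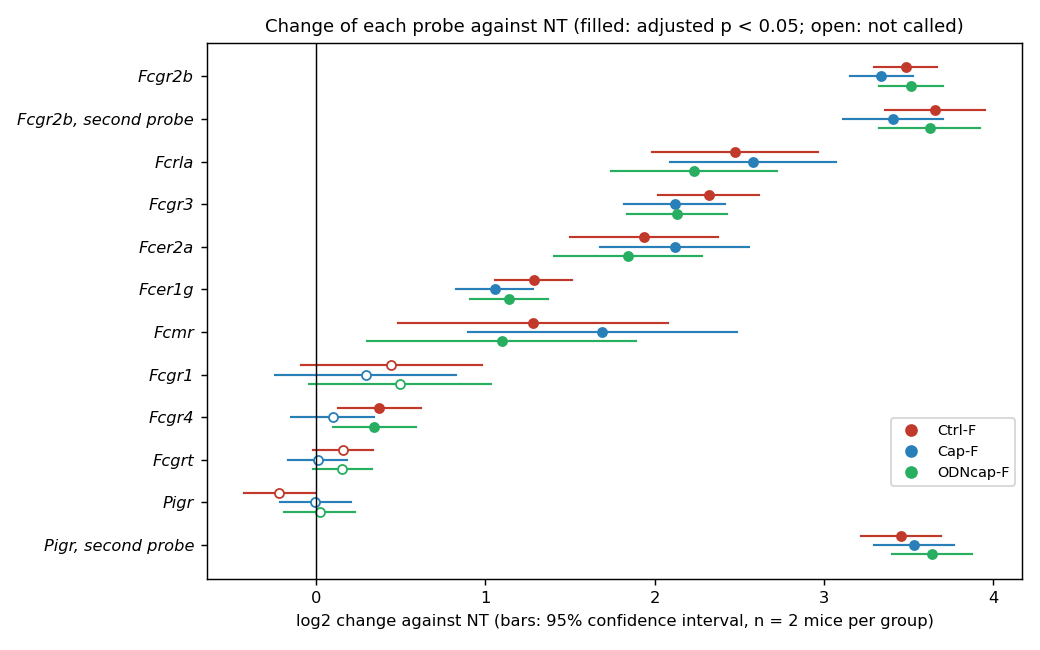
Change of each of the 12 probes against NT on the log2 scale (x axis), with 95% confidence intervals from the limma fit (bars), for Ctrl-F, Cap-F and ODNcap-F with 2 mice per group. Filled points were called and open points were not; both Fcgr2b probes and the second Pigr probe rose by 3.45 or more in Ctrl-F, whereas Fcgr1, Fcgrt and the brighter Pigr probe have no call.

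The rise of Fcgr2b beyond that of the activating receptors was followed within each array, as the mean log2 value of Fcgr1, Fcgr3 and Fcgr4 minus that of Fcgr2b. Only changes of this difference between mice carry meaning, since levels of different probes are not on a common scale. Relative to the mean of NT it was 0.08 and −0.08 in NT mice, −2.43 and −2.44 in Ctrl-F mice, −2.42 and −2.58 in Cap-F mice, and −2.64 and −2.41 in ODNcap-F mice. The 6 OVA-exposed mice lay in a narrow band apart from NT. The difference fell by 2.44, 2.50 and 2.52 for Ctrl-F, Cap-F and ODNcap-F (exact two-sided permutation p = 0.333 each, the smallest possible). ODNcap-F and Ctrl-F differed by −0.09 (exact permutation p = 1). For Fcgr3 alone, the activating gene that rose most, the difference to Fcgr2b fell by 1.16, 1.22 and 1.38. The Fcgr1 and Fcgr4 probes changed least of the 3 and made up most of the fall.

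**Figure D3:**
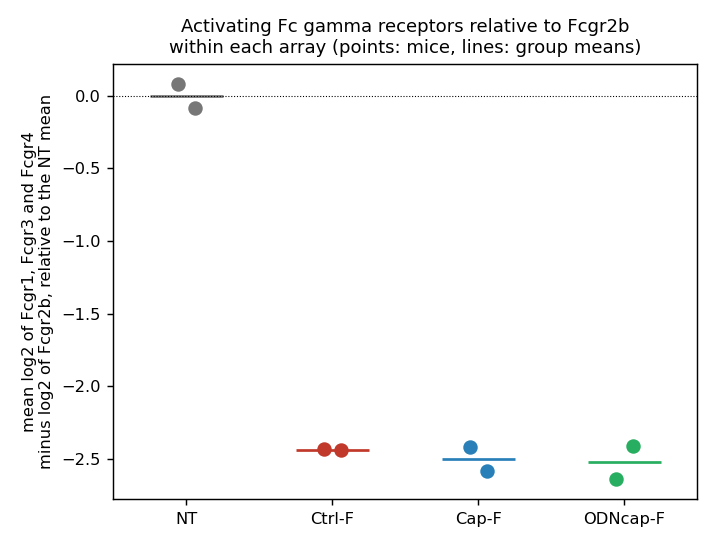
Mean log2 intensity of Fcgr1, Fcgr3 and Fcgr4 minus that of Fcgr2b within each array, relative to the NT mean (y axis), for the 8 mice (points) with group means (lines). The OVA-exposed mice lie between −2.64 and −2.41 and the NT mice at 0.08 and −0.08.

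The receptors best known from B cells rose as well. Fcer2a, the low-affinity IgE receptor CD23, was at 9.17 and 8.64 in NT mice, 10.77 and 10.92 in Ctrl-F mice, 11.0001 and 11.05 in Cap-F mice, and 10.83 and 10.67 in ODNcap-F mice. Its rise was 1.94 ± 0.18 (SE; 3.83-fold, adjusted p = 3.15e-04) in Ctrl-F, with 2.12 in Cap-F and 1.84 in ODNcap-F. Fcrla, an Fc receptor-like protein kept inside B cells, was at 8.81 and 8.47 in NT mice, 11.37 and 10.85 in Ctrl-F mice, 11.27 and 11.17 in Cap-F mice, and 10.96 and 10.78 in ODNcap-F mice. It rose by 2.47 ± 0.20 (SE; 5.55-fold, adjusted p = 2.00e-04) in Ctrl-F, with 2.58 in Cap-F and 2.23 in ODNcap-F. For both genes the OVA-exposed mice stood well clear of NT.

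Fcmr, the receptor for the Fc part of IgM, had the widest SE of the 10 genes in the fit. It was at 11.14 and 10.51 in NT mice, 12.45 and 11.76 in Ctrl-F mice, 12.61 and 12.42 in Cap-F mice, and 12.19 and 11.65 in ODNcap-F mice. It rose by 1.28 ± 0.32 (adjusted p = 0.0156) in Ctrl-F, by 1.69 (adjusted p = 0.00599) in Cap-F and by 1.10 (adjusted p = 0.0285) in ODNcap-F. The mice of NT and OVA-exposed groups did not overlap, but the first mouse was above the second in each group, by 0.63 in NT and 0.69 in Ctrl-F. Without the second NT mouse the adjusted p was 0.0802 in Ctrl-F and 0.137 in ODNcap-F, without the first Ctrl-F mouse it was 0.0743, and without the first ODNcap-F mouse it was 0.132. With no filter on dim probes the ODNcap-F call was lost as well (adjusted p = 0.0644).

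Markers of B cells moved with these receptors. All 8 of 8 measured B cell markers were called higher for Ctrl-F, Cap-F and ODNcap-F against NT, with median changes of 2.05, 2.23 and 1.90. Beside them, 26.2%, 24.1% and 25.1% of all genes were called higher. Blk, a kinase of the B cell receptor, rose by 3.01, Fcrl1 by 2.51 and Cd79a, a chain of the antigen receptor, by 2.13 in Ctrl-F. The mean log2 level over the list was 8.13 and 7.67 in NT and between 9.70 and 10.16 in the OVA-exposed mice, with the first mouse above the second in each group as for Fcmr. Of 7 plasma cell markers 6 were called higher in each comparison with NT, and in Cap-F 1 was called lower. The median change in Ctrl-F was 4.88, and Mzb1 rose by 6.45, Jchain by 6.09 and Derl3 by 5.35. In whole lung, more B cells and more RNA per B cell cannot be told apart. The part of cell numbers in the rise of Fcgr2b, Fcer2a, Fcrla and Fcmr was not tested.

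Promoter sequences of these genes were read from RefSeq windows (build GRCm38.p6), 250 bases before each start site, with 13 windows for the 10 genes. They were searched on both strands for 4 short motifs. GAGGAA, the core bound by the myeloid and B cell factor PU.1, occurred upstream of 5 of the 10 genes and in 23.3% of all 32851 windows. TTC and GAA with 4 bases between them, a motif of the IL-4-responsive factor STAT6, occurred in 1 gene, Fcer2a, and in 5.85% of all windows, and the form with 3 bases between them in 1, Fcgr1, and in 7.02%. A pair of GAAA with 2 bases between them, the motif of interferon regulatory factors, occurred in Fcgr4 and Fcrla and in 2.98% of all windows. A gene with several windows counts once where any of them holds a match, while the shares are per window. A letter match is a description and shows no binding. No match was found for Fcer1g, Fcgr2b, Pigr and Fcgrt, which says only that these letters are not in the windows. The stretches from 10 bases before the first match to the start site are shown for the called genes with a match, in their own 5′ to 3′ direction and with the matches in capitals (TTCCTC is GAGGAA on the other strand). They are Fcer2a at chr8:3690862-3691039 on the minus strand, Fcrla at chr1:170927584-170927785 on the minus strand, Fcgr4 at chr1:171018843-171018925 on the plus strand, Fcgr3 at chr1:171059395-171059419 on the minus strand and Fcmr at chr1:130865731-130865776 on the plus strand.
Fcer2a: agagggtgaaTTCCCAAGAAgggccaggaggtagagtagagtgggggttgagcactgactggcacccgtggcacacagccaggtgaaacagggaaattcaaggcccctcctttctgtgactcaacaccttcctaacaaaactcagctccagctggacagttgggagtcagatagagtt
Fcrla: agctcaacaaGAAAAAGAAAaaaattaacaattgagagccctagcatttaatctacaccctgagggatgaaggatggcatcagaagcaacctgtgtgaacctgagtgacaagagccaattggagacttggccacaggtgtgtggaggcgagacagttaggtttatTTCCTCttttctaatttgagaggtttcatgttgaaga
Fcgr4: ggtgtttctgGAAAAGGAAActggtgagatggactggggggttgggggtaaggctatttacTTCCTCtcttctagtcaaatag
Fcgr3: gtccatttccTTCCTCtttttgtag
Fcmr: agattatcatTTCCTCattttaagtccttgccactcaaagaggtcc

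The stretches show that GAGGAA lies within 37 bases of the start site in Fcgr3, Fcgr4, Fcrla and Fcmr. The STAT6 motif of Fcer2a lies at 168 bases in window 2 of its 3 windows, with 0 matches in windows 1 and 3. Fcgr3 and Fcgr4 share the GAGGAA match and a common partner chain, and they rose by 2.32 and 0.38 in Ctrl-F. Whether the match or the chain bears on these changes was not tested. On chromosome 1 the RefSeq table places Fcrlb, Fcrla, Fcgr2b, Fcgr4 and Fcgr3 close together in this order, with Gm39701 between Fcrla and Fcgr2b. Within this run Fcrlb rose by 2.33 in Ctrl-F, so that Fcgr4 had the smallest change of these 5 genes. Fcrlb is named here after its value was seen.

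The transporters gave a different picture. Pigr, which carries dimeric IgA and pentameric IgM across epithelium into the airway lumen, was very bright at 14.87 and 14.90 in NT mice, 14.70 and 14.65 in Ctrl-F mice, 14.78 and 14.99 in Cap-F mice, and 14.93 and 14.89 in ODNcap-F mice. The Ctrl-F mice were slightly below the others. Changes against NT were −0.22 (adjusted p = 0.0712), −0.0034 (adjusted p = 0.976) and 0.02 (adjusted p = 0.836), none of them called. The direction in Ctrl-F depends on the scaling, since with each array scaled to its 75th percentile the change was 0.12 (adjusted p = 0.246) and that in ODNcap-F was 0.34 (adjusted p = 0.0130). With the first or the second Cap-F mouse left out of the shared fit, the change of −0.22 in Ctrl-F had an adjusted p of 0.0491.

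The second Pigr probe, annotated with the same transcript, was dim in NT and moved otherwise. It was at 4.69 and 4.82 in NT mice, 8.18 and 8.23 in Ctrl-F mice, 8.26 and 8.31 in Cap-F mice, and 8.28 and 8.50 in ODNcap-F mice. The change was 3.45 ± 0.10 (adjusted p = 7.11e-06) in Ctrl-F, with 3.53 and 3.64 in Cap-F and ODNcap-F. The probes of Fcgr2b moved together and those of Pigr did not. What the dim Pigr probe binds was not tested, and Pigr is reported as uncertain. Fcamr and Fcmr, Fc receptors for IgA or IgM, are the genes on either side of Pigr on chromosome 1, and both rose.

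**Figure D4:**
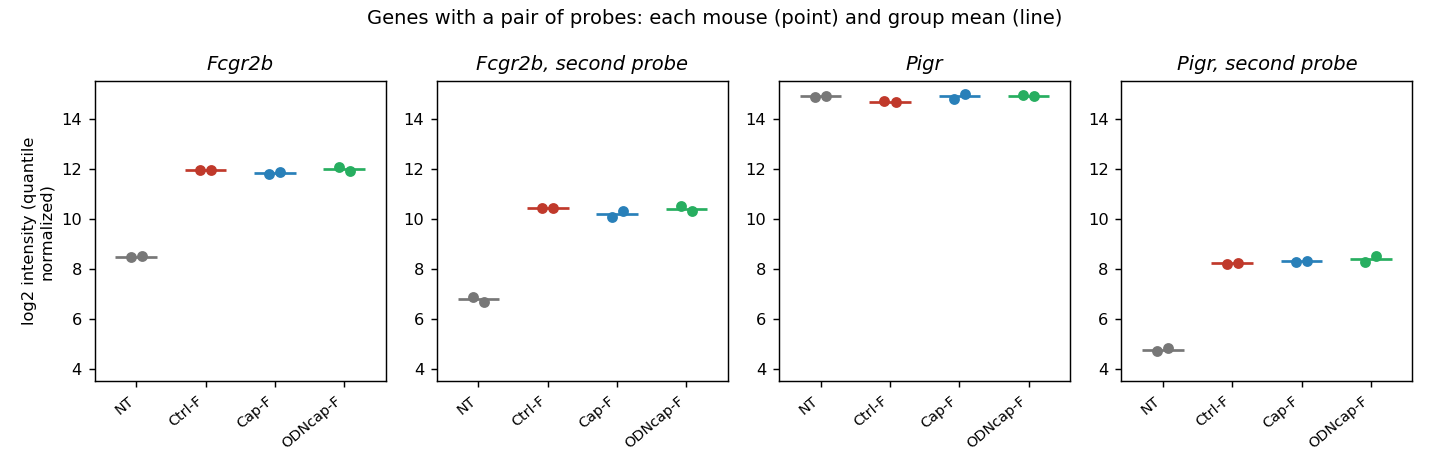
Log2 intensity (quantile normalized, y axis, common scale) of both probes of Fcgr2b and of Pigr in each of the 8 mice (points) with group means (lines). The NT mice are low for both Fcgr2b probes and for the second Pigr probe, whereas the brighter Pigr probe lies between 14.65 and 14.99 in all 8 mice.

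Fcgrt, the neonatal Fc receptor that rescues IgG and albumin from degradation, had small changes. It was at 11.09 and 11.10 in NT mice, 11.19 and 11.32 in Ctrl-F mice, 11.10 and 11.11 in Cap-F mice, and 11.27 and 11.23 in ODNcap-F mice. The changes of 0.16 (adjusted p = 0.0977), 0.01 (adjusted p = 0.907) and 0.16 (adjusted p = 0.106) were not called, and the 95% confidence interval in Ctrl-F reached up to 0.34. With 75th percentile scaling Ctrl-F was called (0.22, adjusted p = 0.0432) and with normexp background correction ODNcap-F was (0.20, adjusted p = 0.0335). B2m, the light chain with which Fcgrt pairs, was at 16.05 and 15.99 in NT and between 15.84 and 16.09 in the OVA-exposed mice, and its change of −0.08 (adjusted p = 0.452) in Ctrl-F was not called.

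Partners of these genes were followed with a list of 13 other Fc receptors and associated genes, of which 12 were measured. In Ctrl-F against NT 7 were called higher and 1 lower with a median change of 0.97, and in Cap-F and ODNcap-F 8 were called higher and 1 lower. Jchain, which joins the polymeric antibodies that Pigr carries, rose from 10.43 and 10.09 in NT to 16.35 and 16.34 in Ctrl-F, 16.28 and 16.37 in Cap-F and 16.33 and 16.50 in ODNcap-F. This is a 67.9-fold rise in Ctrl-F beside the flat brighter probe of Pigr. Fcamr, a receptor for IgA and IgM, was not well above background in NT and was at least 7.06-fold higher in Ctrl-F. Its probe was kept through the OVA-exposed groups alone, so its place in the list is not independent of the filter. Fcrl1, a B cell surface protein, rose by 2.51. Jchain and Fcrl1 are also counted in the plasma cell and B cell lists above.

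The other chains of the high-affinity IgE receptor were closer to background. Fcer1a, its IgE-binding chain, was at 4.02 and 3.98 in NT mice, 5.26 and 5.10 in Ctrl-F mice, 4.87 and 4.96 in Cap-F mice, and 4.71 and 5.41 in ODNcap-F mice, a rise of 1.18 (adjusted p = 0.00460) in Ctrl-F. Ms4a2, its beta chain, changed by 0.76 (adjusted p = 0.0621) and was not called. Ncr1, a natural killer cell receptor that also signals through the gamma chain, fell by 1.24 (adjusted p = 9.75e-04) in Ctrl-F. Cd3e, a chain of the T cell receptor, rose by 0.60 (adjusted p = 0.0156). Of the genes named here whose products pair with the gamma chain, Fcgr3, Fcgr4 and Fcer1a were thus called higher in Ctrl-F, Ncr1 was called lower and Fcgr1 was not called.

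Below the receptors, the list of Fc receptor signalling genes moved mostly upwards. Of 27 measured, 20 were called higher and 2 lower in Ctrl-F against NT, 21 and 4 in Cap-F and 20 and 3 in ODNcap-F, with median changes of 1.27, 1.37 and 1.17. Among all genes 26.2%, 24.1% and 25.1% were called higher in the same order. Lat2, an adaptor of B cells and mast cells, rose by 2.97 and Btk, a kinase of B cells and myeloid cells, by 2.52 in Ctrl-F. Syk, the kinase recruited by the gamma chain, rose by 1.59, and Inpp5d, the phosphatase recruited by Fcgr2b, by 0.84; these 2 were picked for their roles after their values were seen. Many of the list's genes are also used by the B cell receptor.

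Genes of antibody uptake and transcytosis were called lower more often than higher, as were all genes. Of 16 measured, 2 were called higher and 8 lower in Ctrl-F against NT, 2 and 9 in Cap-F and 2 and 7 in ODNcap-F, with median changes of −0.37, −0.47 and −0.29. These counts stand beside the 35.7%, 32.4% and 34.9% of all genes called lower, and nothing particular to the list is read from them. Mal2, a membrane protein needed for transcytosis in polarised cells, was at 14.75 and 14.77 in NT and between 13.24 and 13.43 in the OVA-exposed mice, and its change in Ctrl-F was −1.44 (adjusted p = 3.46e-05). Myo5b, a motor of recycling endosomes, changed by −1.003 (adjusted p = 1.01e-04), and Alb, a ligand of Fcgrt that was close to background, by −1.23 in Ctrl-F.

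Markers of other lung cells were read beside these results. In Ctrl-F against NT 26.2% of all genes were called higher and 35.7% lower, and counts near these shares say nothing particular about a list. Of 10 macrophage and monocyte markers 4 were called higher and 6 lower in Ctrl-F against NT, with Cd68 at 2.22, Adgre1 at 1.76 and Marco, a scavenger receptor of alveolar macrophages, at −3.98. The mean log2 level over that list was 11.73 and 11.69 in NT and between 11.43 and 11.59 in the OVA-exposed mice. All 6 of 6 eosinophil markers were called higher, with a median change of 3.02. Epx, the eosinophil peroxidase, was not well above background in NT and was at least 27.2-fold higher. Its probe was kept through the OVA-exposed groups alone, so its place among the 6 is not independent of the filter. Prg2 rose by 3.77 and Il5ra by 3.16. The mean level of the list, Epx included, was 7.20 and 6.67 in NT and between 9.57 and 9.94 in the OVA-exposed mice. Of 7 mast cell and basophil markers 2 were called higher, Cpa3 (1.45) and Fcer1a, and 1 lower, Kit (−0.98), with mean list levels of 6.90 and 6.71 in NT and between 6.97 and 7.24 in the OVA-exposed mice.

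Of 6 dendritic cell markers 2 were called higher, Itgax (3.37) and Flt3 (1.36), and 1 lower, Zbtb46 (−0.77). Of 6 neutrophil markers 2 were called higher, Retnlg (2.21) and Cxcr2 (0.85), and 2 lower, among them S100a9 (−0.91). Of 6 natural killer and T cell markers 3 were called higher, Cd3e among them, and 2 lower, Ncr1 and Klrb1c (−1.16). These counts stand beside 26.2% of all genes called higher and 35.7% lower, and nothing particular to these lists is read from them. Markers of structural cells were read beside the 35.7% of all genes called lower in Ctrl-F. Of 6 endothelial markers 5 were called lower, with Tek at −1.98, Kdr at −1.51 and Cdh5 at −1.20, and of 6 alveolar epithelial markers 5, with Hopx at −1.85, Aqp5 at −1.54 and Ager at −0.84. Of 7 airway epithelial markers 3 were called lower, Scgb3a2 (−4.12), Cyp2f2 (−1.95) and Krt8 (−0.40), and 0 higher, a share close to that of all genes, and in ODNcap-F 2 of 7 were called lower. The part of these cell types in the levels of Fcer1g, Fcgr3, Pigr and Fcgrt was not tested.

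The diets of the OVA-exposed mice were then compared, which addresses whether the CpG particles or the particles alone altered these receptors. No gene of the 10 was called in ODNcap-F against Ctrl-F (smallest adjusted p = 0.740), where 0% of all genes were called either way. Of the 10 genes, 1 had an unadjusted p under 0.05, beside 6.78% of all genes, and 0 were called by the local-pooled-error test that the study used. That gene was Pigr, at 14.70 and 14.65 in Ctrl-F and 14.93 and 14.89 in ODNcap-F, with a change of 0.24 and a 95% confidence interval from 0.03 to 0.45. The groups did not overlap in 2 of the 10 genes, Pigr and Fcer1g, beside 35.6% of all genes.

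The intervals bound the difference between these 2 groups, in which diet and slide row cannot be told apart. For Fcgr2b the change in ODNcap-F against Ctrl-F was 0.03 with an interval from −0.16 to 0.22. For Fcer1g it was −0.14 (−0.37 to 0.09), for Fcgr3 −0.19 (−0.49 to 0.11), for Fcgr4 −0.03 (−0.28 to 0.22) and for Fcgrt −0.0036 (−0.18 to 0.17). Fcmr had the widest interval, −0.98 to 0.61 around −0.19, and Fcgr1 the next, −0.48 to 0.59 around 0.05. Changes of Fcmr near 2-fold downwards thus lay within the interval, while for Fcgr2b any change beyond 0.22 upwards lay outside it.

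In ODNcap-F against Cap-F no gene of the 10 was called (smallest adjusted p = 0.387, Fcgr4), and 0.00345% of all genes were called. None of the 10 had an unadjusted p under 0.05, beside 13.4% of all genes. The widest change was that of Fcmr at −0.60 (95% confidence interval −1.39 to 0.20; adjusted p = 0.493), with 12.61 and 12.42 in Cap-F and 12.19 and 11.65 in ODNcap-F. The local-pooled-error test called it (adjusted p = 0.0350). The share of all genes called by that test is not given here, and the 0.00345% is from the limma fit. Fcer2a and Fcrla had changes of −0.28 and −0.35 (adjusted p = 0.556 and 0.511), and the B cell markers a median change of −0.33 with 0 of 8 called. The groups did not overlap in 7 of the 10 genes, beside 45.7% of all genes.

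In Cap-F against Ctrl-F no gene of the 10 was called (smallest adjusted p = 0.271, Fcgr4), beside 0.00345% of all genes. Of the 10 genes 3 had an unadjusted p under 0.05, beside 16.6% of all genes: Fcer1g at −0.23, Fcgr4 at −0.28 and Pigr at 0.21. By the rebuilt local-pooled-error test 0 of the 10 were called, and the share of all genes it called is not given. The groups did not overlap in 7 of the 10 genes, beside 51.7% of all genes, and this comparison lies across the rows of the slide. The within-array difference of activating receptors to Fcgr2b averaged −2.62 in Ctrl-F mice, −2.69 in Cap-F mice and −2.71 in ODNcap-F mice, means that differ by less than the SD of 0.16 between the ODNcap-F mice.

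**Figure D5:**
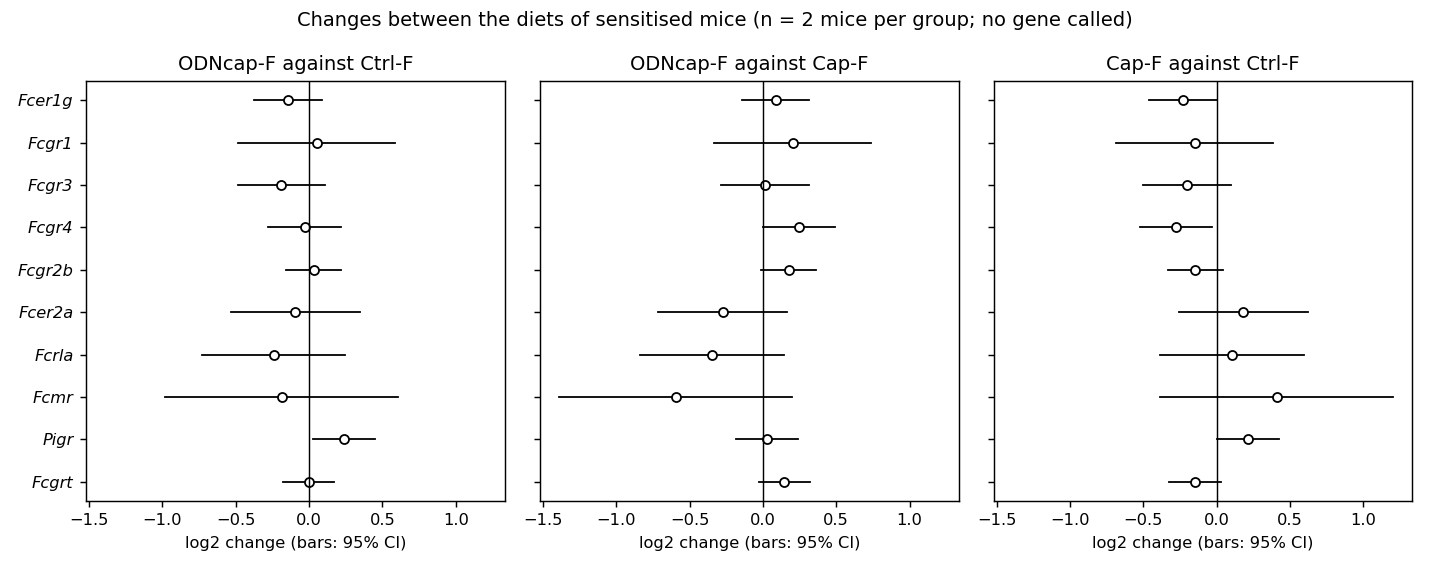
Change of the 10 genes (brighter probe) between the OVA-exposed groups on the log2 scale (x axis) with 95% confidence intervals from the limma fit (bars), 2 mice per group. No gene was called in any of the 3 panels, and Fcmr has the widest interval in each.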

How the data were processed

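Lung RNA of 8 mice was measured on 1-colour Agilent mouse arrays, 1 per mouse and all on 1 slide. The authors deposited the background-subtracted intensity of each spot as written by Agilent Feature Extraction 11.0, and a table of quantile normalized log2 values for 32312 probes. Here the deposited intensities were used. Control spots were left out and 792 spots with outlier flags set to missing, log2 values were averaged over the spots of a probe and quantile normalized, and a probe was kept where both arrays of any group had it well above background. The lowest log2 value well above background was 3.61 to 4.18, so that dim probes have only a bound below it. Gene names came from a RefSeq table, matched by accession for 24290 of 37116 kept probes, and the rest kept their accession. The brightest probe stood for a gene.

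The 6 pairs of the 4 groups were compared in a single model over the 8 arrays, fitted in R 4.3.3 with limma 3.58.1 and no covariate, with 4 residual degrees of freedom and 1.96 from moderation, and p-values were adjusted by Benjamini-Hochberg over all kept probes. The local-pooled-error test, the test in the study's methods, was rebuilt as an alternative. Both were also run on simulated data with large changes of few probes in Ctrl-F, a setting that does not speak to the small changes reported here. The genes, the 3 gene lists and the 11 marker lists were chosen with earlier results of these data known. All 10 genes, their direct partners and at most 3 called genes of each list with the widest change were to be named. Quantile normalization gives all arrays 1 distribution, so a shift common to all RNA would not be seen. The number of arrays limits the precision.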

Additional observations from a re-analysis of the deposited data

How the results depend on the processing

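The counts of called genes among the 10 held under other scaling (75th percentile), normexp background correction, the deposited table, other filters, the mean of a gene's probes, the 2 groups alone and a fold over 2, within 1.5 times. The exception was 1 call in ODNcap-F against Cap-F with the local-pooled-error test. With 1 mouse left out at a time the counts were 5 to 8 in Ctrl-F, 6 to 6 in Cap-F and 5 to 7 in ODNcap-F against NT, and 0 between diets. The fall of the activating receptors relative to Fcgr2b kept its direction under each of the 3 other sources of values. Among the changes of single genes under other settings, 641 kept their direction and side of the threshold, 12 lost and 14 gained a call, and 7 turned. All 7 were of Pigr: in Ctrl-F against NT 0.12 with 75th percentile scaling and 1.62 with the mean of its probes, and in Cap-F against NT 0.19 with 75th percentile scaling, 0.018 with normexp, 1.76 with the mean of its probes, 0.01 without the second NT mouse and 0.10 without the first Cap-F mouse. The cause was not tested beyond the construction of the probe mean, which averages a flat and a rising probe. The median change of all probes was −0.10, −0.10 and −0.11 for Ctrl-F, Cap-F and ODNcap-F against NT and moved by under 0.1 with other scaling. The sample labels do not say whether same-numbered mice belong together. Over all kept probes, the differences between the 2 mice of a group correlated between −0.01 and 0.16 across groups. Even so, the first mouse was above the second in each group for Fcgr4, Fcrla and Fcmr, and below it for the second Pigr probe. With the replicate number as a block, 7, 6 and 7 of the 10 genes were called against NT and 0 between diets. No call of a single gene changed. Whether the replicate number marks a shared batch was not tested.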
